A study of Homo sapiens with 20 samples.

Results

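Among the genes of U937T cells whose RNA differed after 24 h of tetracycline (tet) withdrawal, 54 no longer differed in that direction after 48 h, 18 of them higher and 36 lower without tet at 24 h. They were selected on the measured values of the EVI1 clones E10 and E14 at 24 and 48 h. Each gene was read by the probe set with the highest mean over 20 arrays among those with a single gene symbol, and a difference is the log2 level without tet minus that with tet in the same clone. A gene was kept if its mean log2 level was at least 6, if the difference at 24 h was at least 0.4 in size with the same sign in both clones, and if the difference at 48 h was under 0.2 in that direction, or reversed, in both. Of 19775 genes read by such a probe set, 10228 had a mean of at least 6. Of these, 823 were higher in both clones at 24 h and 18 of them (2.19%) were back at 48 h, while 1034 were lower and 36 of them (3.48%) were back.

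U937, from which U937T derives, is a monocytic leukemia cell line. The clones U937T_EVI1-HA E10 and E14 carry HA-tagged EVI1 under a promoter that tet represses, U937T_vec clone P2 carries the empty vector, and U937T is the parental line. Cells kept in 1 µg/ml tet were washed and placed into medium without or with tet, E10 and E14 for 6, 12, 24 and 48 h and P2 and U937T for 48 h, and RNA was hybridized to Affymetrix HG-U133 Plus 2.0 arrays, with 1 array for each line, time and medium. E10, E14 and P2 are 1 clone each, so the replicates of EVI1 induction are the 2 EVI1 clones, and those of tet withdrawal alone are the 2 control lines. The control lines were read at 48 h alone, so that EVI1 induction and tet withdrawal as such cannot be told apart at 24 h. The methods state growth in tet beforehand for E10, E14 and P2, and do not state it for U937T.

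EVI1, encoded by MECOM, is a zinc finger transcription factor of hematopoietic stem cells, and its overexpression marks aggressive myeloid leukemia. Genes that can change for a short time include those of chemokines, whose mRNA turns over rapidly, those of the circadian clock, whose proteins repress one another in turn, and those of the cell division cycle, whose mRNA is made in one phase and lost in the next. In bulk RNA a lower level per cell and fewer cells of a phase or type cannot be told apart.

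The values are log2 intensities from 1.84 to 14.49, and the medians of the arrays lay between 5.25 and 5.35. On the probe set that reads the transgene, MECOM was higher without tet by 1.38 and 1.55 at 6 h in E10 and E14, by 2.44 and 2.86 at 12 h, by 2.38 and 2.26 at 24 h and by 3.38 and 2.82 at 48 h, against -0.99 in P2 and 0.05 in U937T. Of 10 measured genes of monocytic identity, 9 had a mean of at least 6, while MPO had a median of 4.97. Of 8 epithelial and fibroblast markers none reached that level, and of 6 erythroid and megakaryocyte and 7 lymphoid markers 1 and 2 did. Between the clones, the differences of the 10228 genes correlated with r = 0.40 at 6 h, -0.10 at 12 h, 0.89 at 24 h and 0.96 at 48 h. Genes, over which these correlations run, are no independent replicates. RNA integrity was read as the 3′ minus 5′ signal of actin and GAPDH control probes, and it differed between the media (without minus with tet) by -0.12 to 0.25 in 8 of the 10 pairs, by -0.56 in E14 at 12 h and by -0.32 in U937T.

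**Figure D1:**
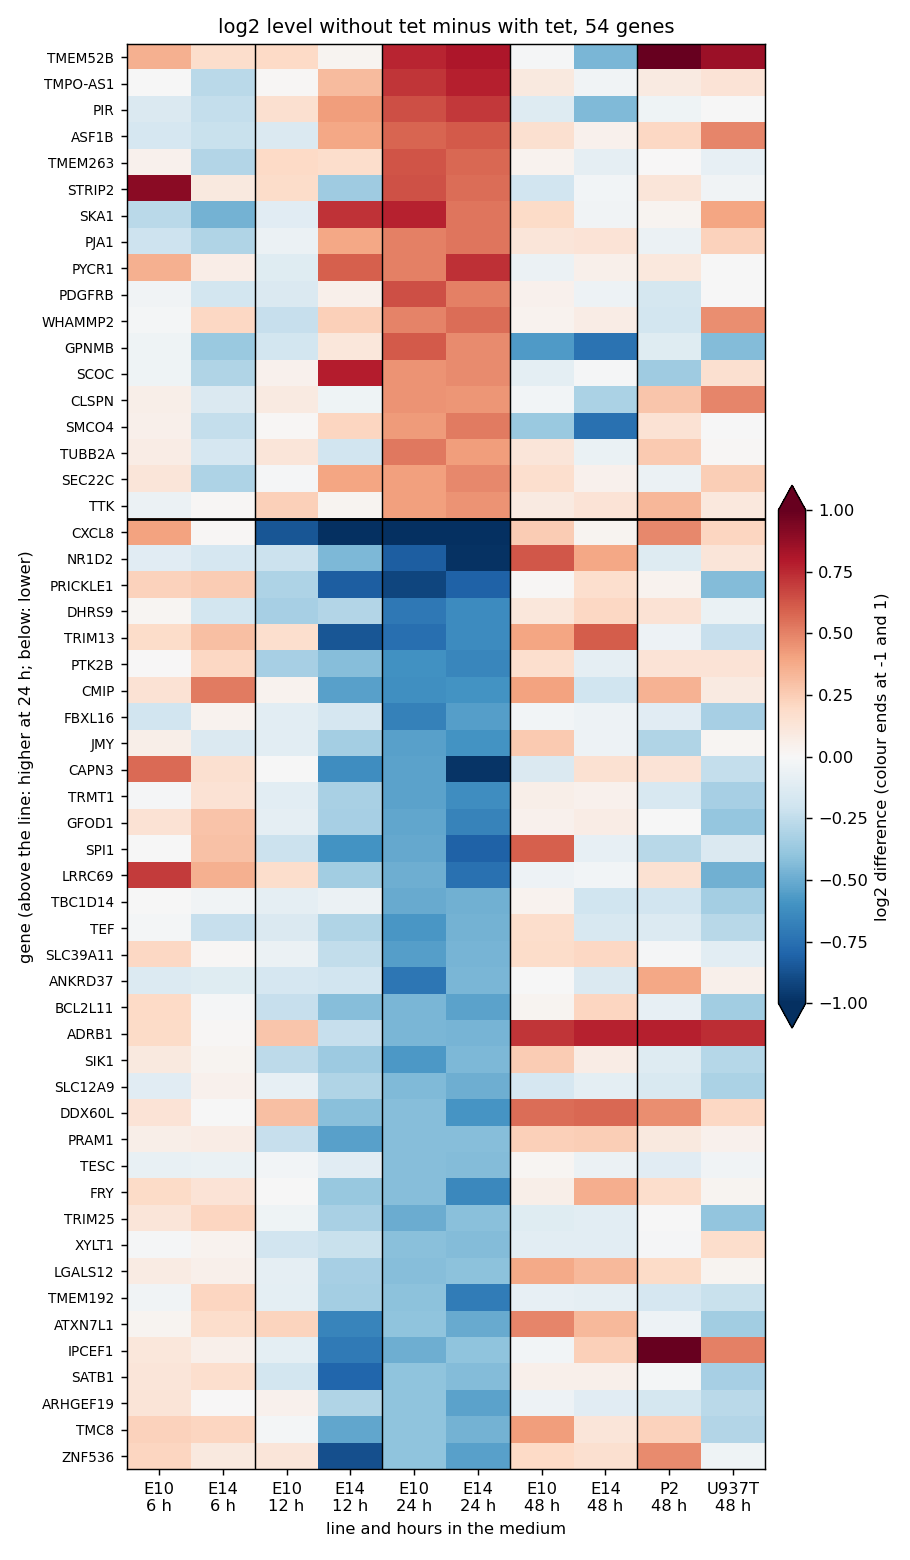
Log2 level without tet minus with tet for the 54 genes (rows) in each line at each time (columns), with red for higher and blue for lower without tet and colours ending at -1 and 1. The 18 genes above the line are red and the 36 below it blue at 24 h in both clones, as the selection requires, and the columns of 48 h are mixed.

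Promoter sequences are shown for CXCL8 and for the lower genes that held an E-box, the searched motif whose share among the lower genes lay farthest above that of all promoters. The first is the stretch of 250 bases before the gene start of CXCL8, the gene with the largest difference at 24 h. It holds an AP-1 site (TGACTCA) and an ETS core (ACTTCC, here on the opposite strand), which are in capitals. AP-1 and ETS proteins are families of transcription factors, and the ETS family includes PU.1, the product of SPI1. The sequence is from RefSeq, on GRCh38.p14, chr4:73740319-73740568, plus strand.
CXCL8: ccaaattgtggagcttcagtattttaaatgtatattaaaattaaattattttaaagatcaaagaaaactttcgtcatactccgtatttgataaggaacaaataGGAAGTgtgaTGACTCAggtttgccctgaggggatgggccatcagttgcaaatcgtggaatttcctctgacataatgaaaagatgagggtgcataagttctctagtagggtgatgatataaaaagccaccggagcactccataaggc

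The second set shows the E-box CACGTG, in capitals, in the 5 promoters of the lower genes that held it. This palindrome is bound by basic helix-loop-helix factors, among them CLOCK and BMAL1 of the circadian clock, MYC and the TFE family of lysosomal regulators. Each window has 30 bases from RefSeq on GRCh38.p14, at chr5:79236075-79236104 (plus strand) for JMY, chr22:41367248-41367277 (plus) for TEF, chr17:73092698-73092727 (minus) for SLC39A11, chr4:185396667-185396696 (plus) for ANKRD37 and chr17:56914081-56914110 (minus) for TRIM25. The E-box began 44, 195, 27, 162 and 49 bases before the gene start in this order.
JMY: accagcgtgcggCACGTGcccatgtttacg
TEF: gcgcgacagctcCACGTGctgcagctggcg
SLC39A11: aggcgggagggcCACGTGtgcgggagggaa
ANKRD37: ggcgccgggctcCACGTGccagtgtttgtg
TRIM25: ccccccgcacccCACGTGacttcctgacgg

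Promoters from 250 bases before to 50 after the start were found for 14 of the 18 higher and 26 of the 36 lower genes, and motifs were searched on both strands. The E-box CACGTG was in 5 of 26 lower genes (19.2%) and in 0 of 14 higher genes, against 7.43% of all 27305 promoters. The ETS core ACTTCC was in 9 of 26 lower genes (34.6%) and 4 of 14 higher genes (28.6%), against 23.2% of all promoters. TGACTCA was in CXCL8 alone of the lower genes (3.85%) and in PIR and GPNMB of the higher genes (14.3%), against 4.92%. The GATA-like core AGATAA, a form bound by the first zinc finger domain of EVI1, was in TEF and DDX60L (7.69%) and in SCOC (7.14%), against 10.5%. These shares are descriptions of a few promoters, and no E-box shown overlapped another searched motif.

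The 18 higher genes differed at 24 h by 0.41 to 0.77 in E10 (median 0.56) and by 0.42 to 0.81 in E14 (median 0.53). At 48 h the medians were 0.04 in E10 and -0.04 in E14. The values at 24 and 48 h in these clones chose the genes and are given with no test. In linear terms the means of both clones at 24 h correspond to 1.35-fold for TTK up to 1.72-fold for TMEM52B.

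Several of the higher genes act in chromosome duplication and division. ASF1B, a chaperone that hands histones H3 and H4 to the replication fork, had levels of 10.73, 10.33, 11.00 and 10.63 without tet and 10.90, 10.47, 10.42 and 10.46 with tet at 6, 12, 24 and 48 h in E10. In E14 its levels were 10.70, 10.61, 10.74 and 10.39 without tet and 10.92, 10.22, 10.13 and 10.34 with tet. Its 24 h difference was thus 0.58 in E10 and 0.62 in E14, and the culture without tet was the lower one at 6 h in both clones.

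TMPO-AS1, a noncoding RNA transcribed opposite to the lamin-binding gene TMPO, had levels of 7.53, 6.86, 7.75 and 7.27 without tet and 7.53, 6.85, 7.03 and 7.17 with tet in E10. In E14 they were 7.17, 7.01, 7.70 and 7.17 without tet, against 7.44, 6.69, 6.93 and 7.20 with tet. The array without tet at 24 h was the highest of its clone in both, and by 48 h the media were within 0.10 of each other. SKA1, which couples kinetochores to microtubules, differed by 0.77 in E10 and 0.53 in E14 at 24 h. CLSPN, the checkpoint mediator claspin of replication forks, differed by 0.45 and 0.44. TTK, the spindle checkpoint kinase MPS1, differed by 0.41 and 0.45, the smallest mean among the higher genes. TUBB2A, a beta-tubulin with a near-identical copy (TUBB2B) that its probes may also read, differed by 0.53 in E10 and 0.42 in E14.

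The wider lists of these processes held calls at both times. Of 40 measured genes of mitosis and G2/M, 24 were called higher and 0 lower at 24 h by limma (median 0.41), and 18 were called higher and 1 lower at 48 h (median 0.31). In the control lines 14 of the 40 were called higher and 0 lower (median 0.32). TTK alone of this list met the selection. Over all 17857 genes tested, 7.97% were called higher and 9.16% lower at 24 h, and 16% higher and 14.7% lower at 48 h. Of 36 genes of DNA replication and S phase, 3 were called higher and 1 lower at 24 h (median 0.03), and 2 higher and 23 lower at 48 h (median -0.39). CLSPN was the member of that list among the 18 genes, with differences at 48 h of -0.02 in E10 and -0.32 in E14.

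A pair of higher genes was reversed at 48 h by more than 0.2 in both clones. GPNMB, a transmembrane glycoprotein of macrophages and pigment cells, had levels of 7.74, 7.10, 7.93 and 6.79 without tet in E10, against 7.79, 7.28, 7.31 and 7.35 with tet. In E14 its levels were 7.35, 7.36, 7.59 and 6.63 without tet, against 7.72, 7.25, 7.11 and 7.37 with tet. The cultures without tet were thus the highest of the late arrays at 24 h and the lowest at 48 h in both clones. SMCO4, a small membrane protein, differed by 0.42 and 0.52 at 24 h and by -0.37 and -0.75 at 48 h in E10 and E14. In the control lines GPNMB was at -0.12 (P2) and -0.44 (U937T), and SMCO4 at 0.15 and -0.00.

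The other higher genes had varied roles. TMEM52B, a membrane protein, had the largest mean difference, with 0.76 in E10 and 0.81 in E14. PIR, the iron-binding nuclear protein pirin, differed by 0.64 and 0.71 at 24 h and by -0.13 and -0.44 at 48 h. PYCR1, a mitochondrial enzyme of proline synthesis, differed by 0.50 and 0.73, and PDGFRB, a receptor of platelet-derived growth factor, by 0.65 and 0.50. For PJA1, a RING-type ubiquitin ligase, the values were 0.50 and 0.54, and for the Golgi protein SCOC 0.45 and 0.47. SEC22C, of a family of vesicle trafficking proteins, differed by 0.41 and 0.48. TMEM263 differed by 0.63 and 0.58 and STRIP2, a partner of striatin, by 0.64 and 0.56. WHAMMP2 is a pseudogene with near-identical copies, so its values of 0.50 and 0.56 may include their RNA.

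**Figure D2:**
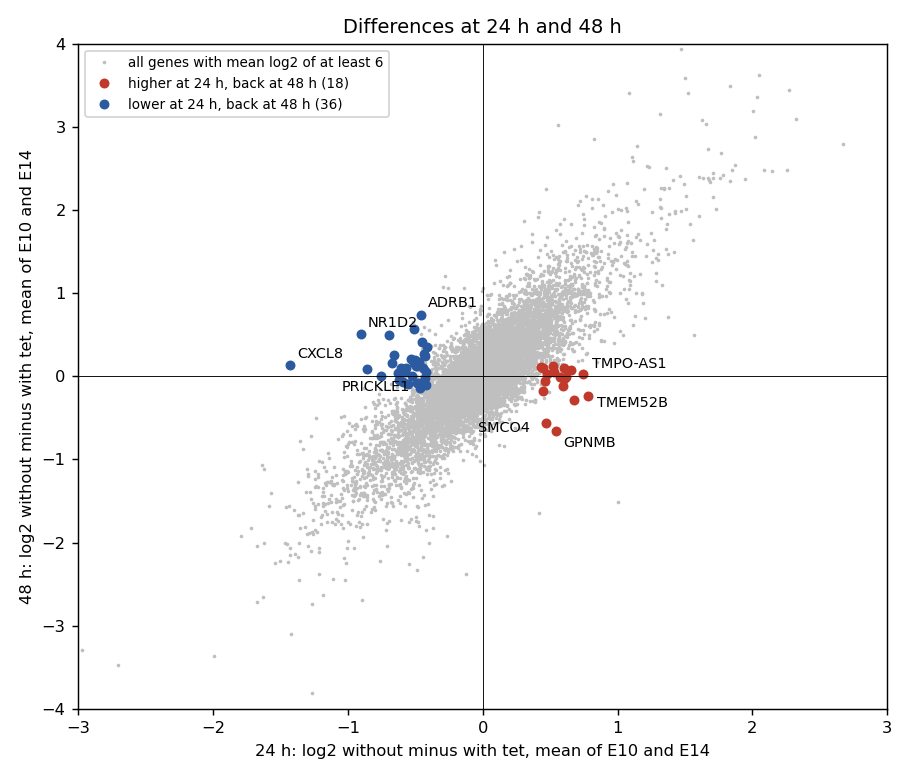
Mean of E10 and E14 of the log2 difference (without minus with tet) at 24 h (horizontal) and 48 h (vertical) for the 10228 genes with a mean level of at least 6, with the 18 higher genes in red and the 36 lower ones in blue and 4 genes outside the axes. Most genes lie along the diagonal, the selected genes lie off it near the horizontal line, and GPNMB, SMCO4, NR1D2 and ADRB1 lie beyond that line.

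The 36 lower genes differed at 24 h by -0.40 to -1.46 in E10 (median -0.50) and by -0.41 to -1.39 in E14 (median -0.54). At 48 h the medians were 0.09 in E10 and 0.06 in E14, and 7 of the 36 were higher without tet by at least 0.2 in both clones.

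CXCL8, the neutrophil chemokine interleukin-8, stood apart in size, with a 2.69-fold lower mean at 24 h. Its levels without tet were 8.39, 6.68, 5.29 and 6.75 in E10 at 6, 12, 24 and 48 h, against 7.99, 7.54, 6.75 and 6.50 with tet. In E14 they were 8.72, 6.71, 5.55 and 7.03 without tet, against 8.72, 8.18, 6.94 and 7.01 with tet. The level was lower at 24 h than at 6 h in every culture, with or without tet, and the media separated at 12 and 24 h and met again at 48 h. A weaker probe set of CXCL8 (mean 5.30) differed by -0.60 in E10 and -0.49 in E14 at 24 h and was still lower at 48 h, by -0.27 and -0.24, so it did not meet the limit at 48 h. Of 26 measured genes of NF-kB targets and inflammatory cytokines, 5 were called higher and 3 lower at 24 h (median 0.11). Over all genes 7.97% were called higher and 9.16% lower at 24 h. CXCL8, chosen for being lower, is the member of this list among the 36. The neighbouring chemokine genes CXCL1, CXCL2 and CXCL3, looked at after the values were seen, had mean levels of 3.29, 4.76 and 4.33 and were called in neither direction at 24 h.

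Among the 36 were 2 genes of the circadian clock. NR1D2, the nuclear receptor REV-ERB beta that represses clock genes, had levels of 7.96, 7.59, 7.19 and 8.19 without tet in E10, against 8.07, 7.80, 8.01 and 7.57 with tet. In E14 its levels were 7.57, 7.52, 6.94 and 8.17 without tet, against 7.74, 7.97, 7.93 and 7.78 with tet. The difference was thus -0.82 and -0.99 at 24 h and had the opposite sign at 48 h, 0.62 and 0.39. TEF, a PAR-type leucine zipper factor whose mRNA follows the clock, differed by -0.58 and -0.47 at 24 h and by 0.17 and -0.16 at 48 h. In a list of clock genes made after the values were seen, 14 were measured, and 1 was called higher and 4 lower at 24 h by limma, against 7.97% and 9.16% of all genes. NR1D2 and TEF are 2 of these 4 and were chosen for being lower. PER2, a repressor of CLOCK and BMAL1, was lower by 0.67 and 0.92 at 24 h and stayed lower at 48 h, with differences of -0.51 in E10 and -0.56 in E14 (adjusted p = 0.000383 from limma at 48 h). NFIL3, a repressor that competes with PAR-type factors for their sites, was higher by 0.66 and 0.63 at 24 h and by 1.06 and 1.11 at 48 h. In the control lines at 48 h NFIL3 was also called higher, by 0.41 in P2 and 0.70 in U937T (adjusted p = 0.0138 from limma). PER2 was at -0.21 in P2 and -0.15 in U937T and was not called there.

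Regulators and adaptors of myeloid cells were among the lower genes. SPI1, which encodes PU.1, the master factor of monocytes, had levels of 9.82, 9.48, 9.17 and 9.45 without tet in E10, against 9.83, 9.69, 9.68 and 8.85 with tet. In E14 they were 10.29, 9.36, 8.97 and 9.56 without tet, against 10.00, 9.96, 9.78 and 9.64 with tet. The differences at 24 h were -0.51 and -0.81, and that of 0.60 in E10 at 48 h stood beside the lowest SPI1 value of all 20 arrays, 8.85 in the culture with tet. Of 10 measured genes of monocytic identity, 3 were called higher and 2 lower at 24 h, against 7.97% and 9.16% of all genes. At 48 h 6 were called higher and 0 lower, against 16% and 14.7%. The list holds SPI1, chosen for being lower at 24 h. In the control lines 4 of the 10 were called higher and 0 lower (median 0.40), against 5.41% and 5.3% of all genes. PRAM1, an adaptor of myeloid cells, differed by -0.43 in both clones at 24 h and by 0.24 and 0.25 at 48 h. PTK2B, the focal adhesion-related kinase PYK2, differed by -0.60 and -0.66, and TESC, the calcium-binding protein tescalcin, by -0.42 and -0.43. LGALS12, galectin-12, differed by -0.42 and -0.41 at 24 h and by 0.38 and 0.33 at 48 h. DHRS9, a retinol dehydrogenase, differed by -0.72 and -0.63, and its 2 other probe sets by -0.73 to -0.82.

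A further group held ubiquitin ligases and genes of innate immunity. TRIM13, a ligase of the endoplasmic reticulum, differed by -0.76 and -0.63 at 24 h and by 0.39 and 0.61 at 48 h. TRIM25, the ligase that activates the RNA sensor RIG-I, differed by -0.50 and -0.42, and FBXL16, an F-box protein, by -0.68 and -0.55. DDX60L, a helicase-like gene induced by interferon, differed by -0.43 and -0.59 at 24 h and by 0.56 and 0.58 at 48 h. In the control lines DDX60L was at 0.46 in P2 and 0.21 in U937T. Another probe set of DDX60L (mean 6.05) differed by -0.24 in E10 and 0.13 in E14 at 24 h. At 48 h it differed by -0.22 and -0.53, and in the control lines by -0.44 in P2 and -0.24 in U937T. The values of DDX60L thus differ in sign between its probe sets at 48 h. Of 35 interferon-stimulated genes measured, 18 were called higher and 2 lower at 24 h (median 0.38), and 27 higher and 1 lower at 48 h (median 0.99). Over all genes 7.97% were called higher and 9.16% lower at 24 h, and 16% and 14.7% at 48 h. In the control lines 12 of the 35 were called higher and 1 lower (median 0.25), against 5.41% and 5.3% of all genes.

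Signalling genes included PRICKLE1, of the planar cell polarity pathway, with -0.92 and -0.81 at 24 h and 0.01 and 0.17 at 48 h. CMIP, an adaptor first described in T cells, differed by -0.62 and -0.60, and at 48 h by 0.40 in E10 and -0.20 in E14. SIK1, a kinase that cyclic AMP induces and that restrains CREB, differed by -0.58 and -0.45. ADRB1, the beta1-adrenergic receptor, had levels of 5.82, 6.23, 6.19 and 7.39 without tet in E10, against 5.63, 5.95, 6.65 and 6.67 with tet. In E14 they were 5.80, 5.99, 6.37 and 7.39 without tet, against 5.79, 6.22, 6.84 and 6.62 with tet. ADRB1 was thus lower by 0.46 without tet in both clones at 24 h and higher by 0.72 and 0.77 at 48 h, the largest differences of opposite sign at that time among the 36 genes. IPCEF1, a partner of the exchange factor cytohesin, differed by -0.48 and -0.41, and ARHGEF19 by -0.40 and -0.54.

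Stress and survival genes among the lower ones were BCL2L11, which encodes the pro-apoptotic protein BIM, ANKRD37, a target of hypoxia-inducible factor, and JMY, a cofactor of p53. BCL2L11 differed by -0.46 and -0.54, ANKRD37 by -0.72 and -0.46, and JMY by -0.54 and -0.59. Of 32 genes of glycolysis and hypoxia, 2 were called higher and 6 lower at 24 h (median -0.10), against 7.97% and 9.16% of all genes, and the list holds ANKRD37, chosen for being lower. SATB1, an organizer of chromatin, differed by -0.40 and -0.44, and the zinc finger gene ZNF536 by -0.40 and -0.54. CAPN3, a calpain protease, differed by -0.53 and -0.98, and TRMT1, a methyltransferase of tRNA, by -0.53 and -0.62.

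The remaining lower genes were GFOD1, LRRC69, TBC1D14, SLC39A11, SLC12A9, FRY, XYLT1, TMEM192, ATXN7L1 and TMC8. TBC1D14 (-0.50 and -0.48) acts in autophagy, SLC39A11 (-0.55 and -0.46) is a zinc transporter, XYLT1 (-0.42 and -0.43) starts glycosaminoglycan chains, and TMEM192 (-0.41 and -0.70) lies in the lysosomal membrane. GFOD1 differed by -0.52 and -0.67, LRRC69 by -0.49 and -0.75, SLC12A9 by -0.44 and -0.49, FRY by -0.42 and -0.64, ATXN7L1 by -0.41 and -0.50 and TMC8 by -0.40 and -0.47. Of them ATXN7L1 was also higher without tet by at least 0.2 in both clones at 48 h, by 0.49 and 0.33. LRRC69, CAPN3 and ADRB1 had the lowest mean levels of the 36, 6.79, 6.67 and 6.44, while TESC had the highest, 11.97.

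To see in which culture the arrays at 24 h stood apart, each was set against the mean of 12 and 48 h of its own clone and medium. For the higher genes the median shift of the culture without tet was 0.51 in E10 and 0.45 in E14, against 0.01 and -0.14 with tet. The shift was larger in size without tet in both clones for 12 of the 18 genes and larger with tet in both for 2, PDGFRB and WHAMMP2. For the lower genes the median shift was -0.35 and -0.23 without tet, against 0.18 and 0.16 with tet. Here 17 of 36 genes shifted more without tet in both clones, 5 more with tet in both and 14 more in one medium in E10 and in the other in E14. CXCL8 shifted by -1.43 and -1.32 without tet, against -0.27 and -0.65 with tet, and NR1D2 by -0.70 and -0.90 without tet, against 0.33 and 0.06 with tet. ARHGEF19 showed the other form, with -0.03 and -0.02 without tet, against 0.36 and 0.32 with tet. These shifts use the 24 and 48 h arrays that chose the genes and carry no test. The RNA integrity measure of E14 stood apart at 24 h in both media, at 1.40 without tet and 1.52 with tet, against 0.46 to 1.02 for E14 at 12 and 48 h and 0.59 and 0.69 for E10 at 24 h, and its part in the shifts was not tested.

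The differences at 6 and 12 h and in the control lines were not used in the selection, which took from those arrays only the mean level of each probe set. They were tested with limma over all 17857 genes, all 54 among them. The spread in these tests was pooled over all 20 arrays, those at 24 and 48 h included. The selection asked the clones to agree there, so the standard errors of the 54 genes may be too small. For CXCL8 the standard deviation of the 2 clone differences was 0.05 at 24 h and 0.44 at 12 h. At 6 h, 0 of the 18 higher and 0 of the 36 lower genes were called, as were 0% of all genes in either direction. At an unadjusted p under 0.05, 0 of the 18 and 1 of the 36 (higher) differed at 6 h, against 275 higher and 310 lower of all genes. The median difference at 6 h was -0.10 for the 18 genes and 0.09 for the 36, against -0.00 for all genes. The sign opposite to that at 24 h was thus the more common one at 6 h, with 8 of 18 and 21 of 36 genes of that sign in both clones and 3 and 5 of the 24 h sign in both. Per clone, 8 of the 18 genes were higher in E10 and 5 in E14, and 11 and 9 of the 36 were lower. Among all genes with a mean of at least 6, 43.4% were lower in E10 and 58.7% in E14. The share with one sign in both clones was not counted over all genes.

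At 12 h CXCL8 was called lower without tet, with a difference of -1.17 (standard error 0.15, adjusted p = 0.00769 from limma), -0.86 in E10 and -1.47 in E14. It was the 1 gene of the 36 called lower, and 0 were called higher, while 0.0112% of all genes were called lower and 0.0168% higher. The weaker probe set of CXCL8 (mean 5.30) differed at 12 h by -0.49 in E10 and 0.17 in E14. The fall in E14 at 12 h was thus read by the chosen probe set alone. None of the 18 higher genes was called at 12 h in either direction by limma (0 at an unadjusted p under 0.05). Without E10 the difference of CXCL8 was -1.47 (adjusted p = 0.0648) and without E14 it was -0.86 (adjusted p = 1, both from limma), and without the line as a block its adjusted p was 0.215. With 1 clone left, each arm has 1 array and the fit 1 residual degree of freedom, from the control lines, so that the clone is assumed to vary as they do and these p-values say little on whether the call is stable. Fitted with RNA integrity as a covariate, CXCL8 fell by 1.15 (adjusted p = 0.0219 from limma).

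The lower genes as a whole leaned the same way at 12 h. Their median was -0.22, against -0.01 for all genes, and 15 of 36 were lower at an unadjusted p under 0.05, against 678 of 17857. This count was 10 without the line as a block. The lean was larger in the pair of E14 than in that of E10. In E14 all 36 were lower without tet at 12 h, against 57.9% of the genes with a mean of at least 6, and in E10 28 of 36 were lower, against 54.9%. The median was -0.36 in E14 and -0.10 in E10. For the 18 higher genes, 15 were higher at 12 h in E14 and 10 in E10, with medians of 0.23 and 0.01. The pair of E14 at 12 h was the one whose RNA integrity measure differed most, 0.46 without tet and 1.02 with tet, and in the fit with RNA integrity as a covariate the median of the 36 genes was -0.20. The largest fitted differences after CXCL8 were those of PRICKLE1 (-0.57, standard error 0.15, adjusted p = 0.453) and SATB1 (-0.49, standard error 0.13, adjusted p = 0.449), neither of which was called by limma. In the test of the difference at 12 h minus that at 6 h, 0 of the 54 genes were called by limma, against 0.0056% of all genes called higher and 0% lower. The smallest adjusted p there was that of CXCL8, 0.0791, with a difference of -1.37. At an unadjusted p under 0.05, 3 of the 18 genes were higher and 16 of the 36 lower in this comparison, against 519 higher and 595 lower of all genes.

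The early arrays also gave the change of these genes with time within a culture. Without tet, 16 of the 18 higher genes in E10 and 9 in E14 had a lower level at 12 h than at 6 h, with median changes of -0.32 and -0.04, while with tet 15 in E10 and 17 in E14 did, with medians of -0.35 and -0.49. Of the 36 lower genes, 26 in E10 and 13 in E14 had a higher level at 12 h without tet (medians 0.11 and -0.11), against 30 in E10 and 33 in E14 with tet (medians 0.31 and 0.37). Among all genes with a mean of at least 6, 43.3% and 43.0% were higher at 12 h without tet, against 48.8% and 46.4% with tet. The cultures kept in tet thus changed with time as well, and E14 without tet was the one whose 18 genes were evenly split. The RNA integrity measure at 6 and 12 h was 0.29 and 0.80 in E10 and 0.65 and 0.46 in E14 without tet, against 0.19 and 0.55 in E10 and 0.45 and 1.02 in E14 with tet. Its part in the change between 6 and 12 h was not tested.

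**Figure D3:**
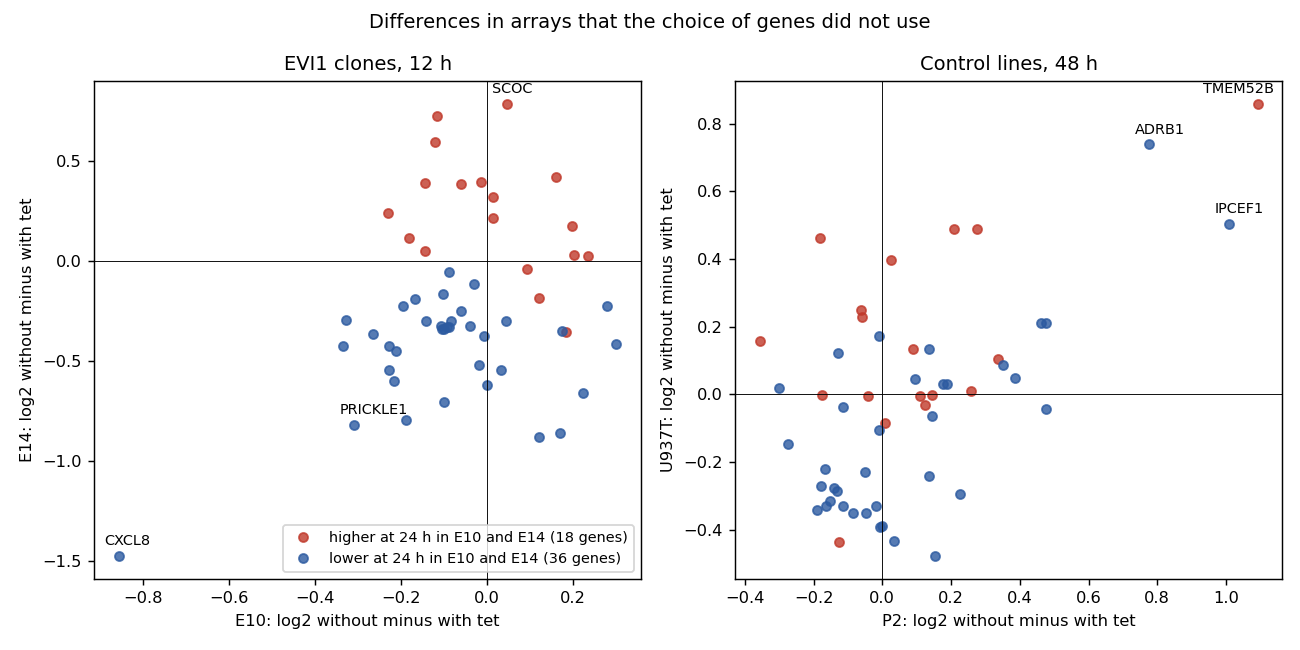
Log2 difference (without minus with tet) of the 54 genes in arrays not used to select them, with E10 against E14 at 12 h on the left and P2 against U937T at 48 h on the right. At 12 h all lower genes (blue) lie under the horizontal line, with CXCL8 at the lower left, and in the control lines TMEM52B, ADRB1 and IPCEF1 lie at the upper right.

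In the control lines, which express no EVI1 transgene, 1 of the 18 higher genes was called higher and 0 lower after 48 h without tet, and of the 36 lower genes 0 were called lower and 2 higher. Over all genes 5.41% were called higher and 5.3% lower, so the shares of members called are near or under these. The difference of TMEM52B was 0.98 (standard error 0.13, adjusted p = 0.000287 from limma), with levels of 7.67 without tet and 6.57 with tet in P2 and of 7.51 and 6.65 in U937T. Its levels in E10 at 48 h were 6.89 without tet and 6.90 with tet, and in E14 6.58 and 7.04. The control lines at 48 h thus differed about as much as E10 and E14 did at 24 h, where TMEM52B was at 7.49 and 7.23 without tet, against 6.73 and 6.42 with tet.

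For ADRB1 limma gave 0.76 with a standard error of 0.11 (adjusted p = 0.00101), the levels being 7.08 without tet and 6.31 with tet in P2 and 7.27 and 6.53 in U937T. Its difference in the clones at 48 h was of the same sign and size, while that at 24 h was of the opposite sign. IPCEF1 was higher by 0.76 with a standard error of 0.17 (adjusted p = 0.0101 by limma), at 9.95 without tet and 8.94 with tet in P2 and 9.72 and 9.21 in U937T. Without P2 the difference of IPCEF1 was 0.50 (adjusted p = 0.243 from limma). CLSPN (0.38, adjusted p = 0.0763) and CXCL8 (0.34, adjusted p = 0.169) were not called in the control lines by limma, with positive differences in both lines. The median over the 18 genes was 0.09 and that over the 36 was -0.11, against -0.02 for all genes.

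Other probe sets, at any level, gave a second reading of 33 of the 54 genes, 6 of the higher and 27 of the lower ones. These readings come from the same arrays that chose the genes, so their agreement is no independent support. The matching shares for other probe sets of all genes were not counted. Of 8 such probe sets of the higher genes with a mean of at least 6, 7 had the same sign in both clones at 24 h, 3 reached 0.4 in both and 3 met the limit at 48 h as well. These 8 were of CLSPN, SEC22C, TMEM263 and SCOC, and the 3 were 2 of CLSPN and 1 of SEC22C. Of 29 of the lower genes, 24 had the same sign, 18 reached -0.4 and 11 met the limit at 48 h as well. Both other probe sets of SATB1 met the whole rule, as did 1 of 3 of PRICKLE1 and 1 of 2 of CAPN3 and of ZNF536.

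Several second probe sets were lower at 48 h too. That of GFOD1 differed by -0.88 in E10 and -0.75 in E14 at 24 h and by -0.67 and -0.99 at 48 h. One of ATXN7L1 differed by -0.63 and -0.83 at 24 h and by -0.46 and -0.52 at 48 h, and one of ZNF536 by -0.52 and -0.59 at 24 h and by -0.43 and -0.27 at 48 h. For these genes the return at 48 h was thus read by some probe sets and not by others.

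Other second probe sets with a mean of at least 6 did not show the difference at 24 h, and some of them are named here. Their values were 0.10 and -0.07 for TMEM263, -0.07 and 0.19 for TRIM25, 0.02 and -0.19 for SIK1, and -0.13 and -0.17 for one of TMC8. They were -0.24 and 0.13 for DDX60L, and 0.29 and -0.00 for one of TRIM13. Those of CMIP (-0.38 and -0.14) and SLC12A9 (-0.16 and -0.38) were lower in both clones but did not reach -0.4. Of 6 others of BCL2L11, 2 reached -0.4 in both clones, and for ADRB1, whose other probe sets had means of 3.67 and 4.11, none was lower in both. The 24 h differences of these genes hold for the probe set chosen, and for TRIM13 and BCL2L11 also for some of the others.

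Genes lay close on either side of each threshold. TTK, SEC22C and TUBB2A lay just inside 0.4 at 24 h, while MAPRE1 (0.38 and 0.42), SPC24 (0.38 and 0.40) and TK1 (0.40 and 0.37) lay just outside. On the lower side ZNF536, TMC8 and ARHGEF19 lay just inside, and NABP1 (-0.40 and -0.47), PCIF1 (-0.41 and -0.39) and PTCH1 (-0.44 and -0.39) just outside. At 48 h SKA1 (0.19 in E10), SEC22C (0.17) and ASF1B (0.16) were just inside 0.2, with ZNF687-AS1 (0.21), CCNYL1 (0.22) and TBC1D31 (0.22) just outside. CMIP (-0.20 in E14), TBC1D14 (-0.20 in E14) and SLC12A9 (-0.17 in E10) were just inside on the lower side, with LRP8 (-0.20 in E14), B4GALNT3 (-0.21 in E10) and MNT (-0.22 in E10) just outside. By level, PDGFRB (mean 6.12), STRIP2 (6.20) and PYCR1 (6.58) were the nearest higher genes, with EFCAB7 (5.85), SNX32 (5.55) and KRT80 (4.74) below the floor. Among lower genes MGAM (5.69), SORCS2 (5.55) and UFSP1 (5.47) were below it.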

How the data were processed

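RNA of 20 cultures was read on Affymetrix HG-U133 Plus 2.0 arrays. The deposited values are log2 intensities that the authors made with Robust Multi-array Analysis (background correction, quantile normalization, median polish), and were used as they are. Of 54675 probe sets, 41097 carried 1 gene symbol and gave 19775 genes, of which 17857 passed the authors' intensity filter (mean log2 of at least 3 in each late group). limma 3.58.1 in R 4.3.3 was fitted with 10 groups (the clones at 4 times and the control lines, without and with tet) and the line as a block. The block comes from the cell line in the labels. The difference of E10 minus E14 correlated between groups by -0.22 to 0.52 across genes. P-values were adjusted by Benjamini-Hochberg over 17857 genes, with under 0.05 taken as called.

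The genes and lists were chosen with earlier results of these data known. Named genes are up to 12 in each direction with the largest smaller difference at 24 h, up to 5 called members per comparison, up to 4 members of each list, the nearest to each threshold and MECOM. The others were named after their values were seen. Alternatives covered the block, filters, centring, variance model, integrity covariate, each line left out, a 1.5-fold minimum, probe set choice and the thresholds. The fit was tested on simulated data. Nothing in the sources says that clones were cultured more than once. The p-values use 1 spread per gene, pooled over all 20 arrays after the line block and shared by all comparisons. It reflects how the gap in level between the 2 clones, or the 2 control lines, varies over the groups, not how repeated cultures vary. The pairing of the media at one time within a clone was not modelled. The spread is not that within a single comparison. The number of arrays limits the precision.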

Additional observations from a re-analysis of the deposited data

Results flagged for a closer look

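At 48 h the 2 EVI1 clones and the 2 control lines differed in opposite directions, without against with tet, for 11 of the 54 genes. The difference between clones and control lines was not tested, and the selection had held the clones near 0 or reversed at this time. Signs were compared whatever the size of the values, such as -0.00 for GFOD1 in P2. The share of such genes among all genes was not counted, so the count of 11 does not tell whether it is unusual. For 2 of the genes that were higher at 24 h, the mean of the clones lay under that of the control lines, by -1.21 for TMEM52B and -0.55 for CLSPN. Among the genes that were lower at 24 h, the clones lay above the control lines by 0.64 for TRIM13, 0.61 for ATXN7L1, 0.37 for SIK1, 0.34 for BCL2L11, 0.30 for TRMT1, 0.26 for both SLC39A11 and GFOD1 and 0.23 for SATB1. For ANKRD37 they lay under them, with -0.29.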

How the results depend on the processing

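The counts of genes called at 6 h, at 12 h and in the control lines were recomputed under 11 alternatives each. At 6 h they were 0 under every alternative. At 12 h the count of lower genes was 1, and 0 without the line as a replicate block, and between 0 and 1 with a line left out (0 without E10 or without E14). In the control lines, testing only genes with a mean of at least 6 called 2 of the higher genes as higher (CLSPN in addition) and 2 of the lower genes as lower (TRMT1 and TBC1D14, against 0). Of the lower genes, 2 were called higher in the control lines, and 1 without P2. No other of these counts moved by more than 1.5 times.

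The number of genes selected depended on the limits. There were 48 higher and 94 lower genes with at least 0.3 at 24 h, 10 and 13 with at least 0.5, and 3 and 6 with at least 0.6. With under 0.3 at 48 h there were 32 and 60. In 1 clone alone 112 to 113 genes were higher and 118 to 151 lower. With each array centred on its median there were 14 higher genes, all among the 18, and 43 lower ones, of which 34 were among the 36. The probe set with the largest spread gave 23 and 30 genes, 15 and 22 of them shared. The alternatives for single genes that follow all kept the chosen probe set. CXCL8 at 12 h kept its direction under all 10 alternatives and its call under 7. ADRB1 and TMEM52B kept their calls in the control lines under all 10, and IPCEF1 under 9.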
